A study of Mus musculus with 9 samples.

Results

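Glucose is broken down to pyruvate by the enzymes of glycolysis, and pyruvate either becomes lactate or enters mitochondria, where it is oxidized through the pyruvate dehydrogenase complex and the citric acid cycle. The 38 genes described here encode these enzymes, the kinases that switch off pyruvate dehydrogenase, and a pair of lactate transporters. They were listed by their function and found by symbol among the 27179 genes of the count table, and all 38 passed the filter on low counts that left 17344 genes for testing. In the brain, glucose is the main fuel, astrocytes are known for glycolysis and lactate release, and neurons are known for taking up lactate and oxidizing it in mitochondria. Hexokinase traps glucose in the cell, phosphofructokinase sets the pace of glycolysis, and the isocitrate and 2-oxoglutarate dehydrogenases are control points of the citric acid cycle.

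RNA was sequenced from punches of the paraventricular nucleus (PVN) of the hypothalamus, a region that governs endocrine and autonomic output, in 9 male wild-type C57BL/6J mice (C57BL/6 in the labels), with 3 mice per group. The Control group was fed chow (16% of calories as fat), and the HFD group a high-fat diet (60% of calories as fat), each over 12 weeks and from an age of 5 weeks. The HFD+Mino group had the same high-fat diet, with minocycline, a tetracycline antibiotic with anti-inflammatory action, in the drinking water at 40 mg/kg/day in the last 6 weeks. A punch holds every cell type of the tissue, so fewer cells of a type and less RNA per cell cannot be told apart.

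Total counts ran from 17728590 to 42326213 per sample. Values are given as CPM (counts relative to library size, scaled with TMM factors) with replicates in the order 1 to 3. Some libraries stood apart. Control replicate 1 had 6 counts of the vasopressin gene Avp and 31 each of Oxt and Sim1, where the other 8 samples had at least 5568, 15118 and 92, and its summed CPM of 6 oligodendrocyte markers was 29217 against 2221 to 6886 elsewhere. HFD+Mino replicates 1 and 2 had summed CPM of 38056 and 32517 for 6 PVN neuropeptide and identity markers, against 3807 in HFD+Mino replicate 3. Rn45s, the ribosomal RNA precursor, took 0.350% to 0.430% of counts in HFD and 0.0266% to 0.113% in the other groups. HFD replicates were also closer to each other in their counts. The chi-square per degree of freedom between pairs of replicates was 22.0 to 32.9 in HFD, 97.3 to 308 in Control and 114 to 337 in HFD+Mino. A difference in how the HFD libraries were handled cannot be told apart from the group in any comparison with HFD, and was not tested. Control replicate 1 was also the highest Control sample in 28 of 38 members, compared with 38.3% of all genes tested.

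Within glycolysis and the citric acid cycle, 1 of 38 genes passed the test. Idh3g, which encodes a regulatory subunit of the NAD-dependent isocitrate dehydrogenase, was higher in HFD+Mino than in HFD by 2.64-fold. It was the only member called at a false discovery rate (FDR) under 0.01 with at least a 1.5-fold difference (edgeR's quasi-likelihood test, adjusted by Benjamini-Hochberg over 17344 genes). By the same rule, 719 genes, or 4.15% of all tested, were called between HFD+Mino and HFD, and 1.98% were called higher. At an unadjusted p under 0.05 there were 19 members in this comparison, compared with 41.3% of all genes. For HFD against Control 0 members were called and 1.74% of all genes, and 10 members (20.5% of all genes) had an unadjusted p under 0.05. For HFD+Mino against Control 0 members and 0% of all genes were called, and 10 members (21.3% of all genes) had an unadjusted p under 0.05. The 3-way test, which asks whether any group differs and calls genes for which HFD is the highest or lowest group, called 0 members and 2.13% of all genes, with 20 members (39.0% of all genes) at an unadjusted p under 0.05. DESeq2 called 3 members in the 3-way test (Hk1 higher, Idh3g and Mdh2 lower in HFD) and 13.5% of all genes. In pairs, it called 9 members for HFD+Mino against HFD (23.7% of 38, and 22.4% of all genes), 1 for HFD against Control (6.84% of all genes) and 0 for HFD+Mino against Control (1.56% of all genes).

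Idh3g (Entrez 15929, chromosome X, 73778963 to 73786897 on the reverse strand in GRCm38.p6) is described first. Its level was 573, 497 and 360 CPM in Control, 235, 216 and 232 CPM in HFD, and 671, 710 and 422 CPM in HFD+Mino. All 3 HFD samples lay below all 6 others, with a group mean of 227 ± 9.92 CPM (SD, n = 3) against 477 ± 108 in Control and 601 ± 156 in HFD+Mino. The log2 fold change was 1.40 for HFD+Mino minus HFD (95% interval 0.84 to 1.97, FDR = 0.00797, edgeR). For HFD minus Control it was -1.07 (-1.63 to -0.51, FDR = 0.0337, edgeR), which missed the FDR of 0.01 but passed 0.05, as 3.21% of all genes did in this direction with 1.5-fold, and both comparisons use the same HFD samples. HFD+Mino minus Control was 0.33 (-0.22 to 0.89). The call was lost when Control replicate 2, any HFD replicate, or HFD+Mino replicate 1 or 2 was left out (FDR from 0.0179 to 0.0474, log2 fold change from 1.27 to 1.42), when a trend on exon length was removed (1.14, FDR = 0.0113), and when only the 6 samples compared were modelled (1.37, FDR = 0.0108). When Control and HFD+Mino samples were paired by replicate number (a replicate block), the HFD minus Control difference of Idh3g was called as well (-1.04, FDR = 0.00166). This pairing was taken from the same counts and no shared batch is named, so a call made with it adds no independent support. It also raised the calls over all genes, to 6.22% for HFD against Control.

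Upstream sequence is shown for Idh3g and for 3 members to set beside it: Idh3b, which encodes another regulatory subunit of the same enzyme, Mdh2, which was also low in HFD, and Hk1, which was high there. Each is the longest stretch without annotated exons within 250 bases before a RefSeq start site in GRCm38.p6, written 5′ to 3′ on the gene's strand, with matches to the searched motifs in capitals. Hk1 has 2 such start sites, and the more downstream one was used, so its stretch lies inside the gene (62268855 to 62379920). The Idh3g stretch is chrX:73786898-73787027 (-), the Idh3b stretch chr2:130284548-130284701 (-), the Mdh2 stretch chr5:135778399-135778479 (+) and the Hk1 stretch chr10:62340543-62340606 (-).
Idh3g: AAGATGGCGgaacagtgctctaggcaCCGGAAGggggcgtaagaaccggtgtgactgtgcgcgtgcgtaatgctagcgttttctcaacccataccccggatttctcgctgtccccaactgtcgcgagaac
Idh3b: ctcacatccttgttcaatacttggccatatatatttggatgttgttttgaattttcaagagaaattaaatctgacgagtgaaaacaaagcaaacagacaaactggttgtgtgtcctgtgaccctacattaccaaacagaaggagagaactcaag
Mdh2: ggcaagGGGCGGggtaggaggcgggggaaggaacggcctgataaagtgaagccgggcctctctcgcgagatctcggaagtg
Hk1: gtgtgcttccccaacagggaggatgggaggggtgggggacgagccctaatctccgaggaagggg
The motifs, searched on both strands, were a GC box (GGGCGG), an ETS site (CCGGAAG), a YY1 site (AAGATGGCG) and the core of the hypoxia response element (ACGTG). The Idh3g stretch holds 1 YY1 and 1 ETS match, the Mdh2 stretch 1 GC box, and the others none. The stretches differ in length (130, 154, 81 and 64 nt for Idh3g, Idh3b, Mdh2 and Hk1) and in position. That of Idh3g reaches the start site, while the 96, 169 and 121 bases nearest to it are left out for Idh3b, Mdh2 and Hk1. The matches therefore do not compare whole promoters. Over whole windows of 250 bases, a GC box was present before at least 1 start site of 22 of the 36 members with a RefSeq promoter entry (25 of 53 promoters), and in 32.7% of all 32851 promoters. ACGTG was present for 14 of the 36 (21 of 53 promoters) and in 16.6% of all promoters. Of the member promoters only that of Idh3g matched the ETS or the YY1 letters, which 6.91% and 0.606% of all promoters hold. A match describes letters and not a bound factor.

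**Figure D1:**
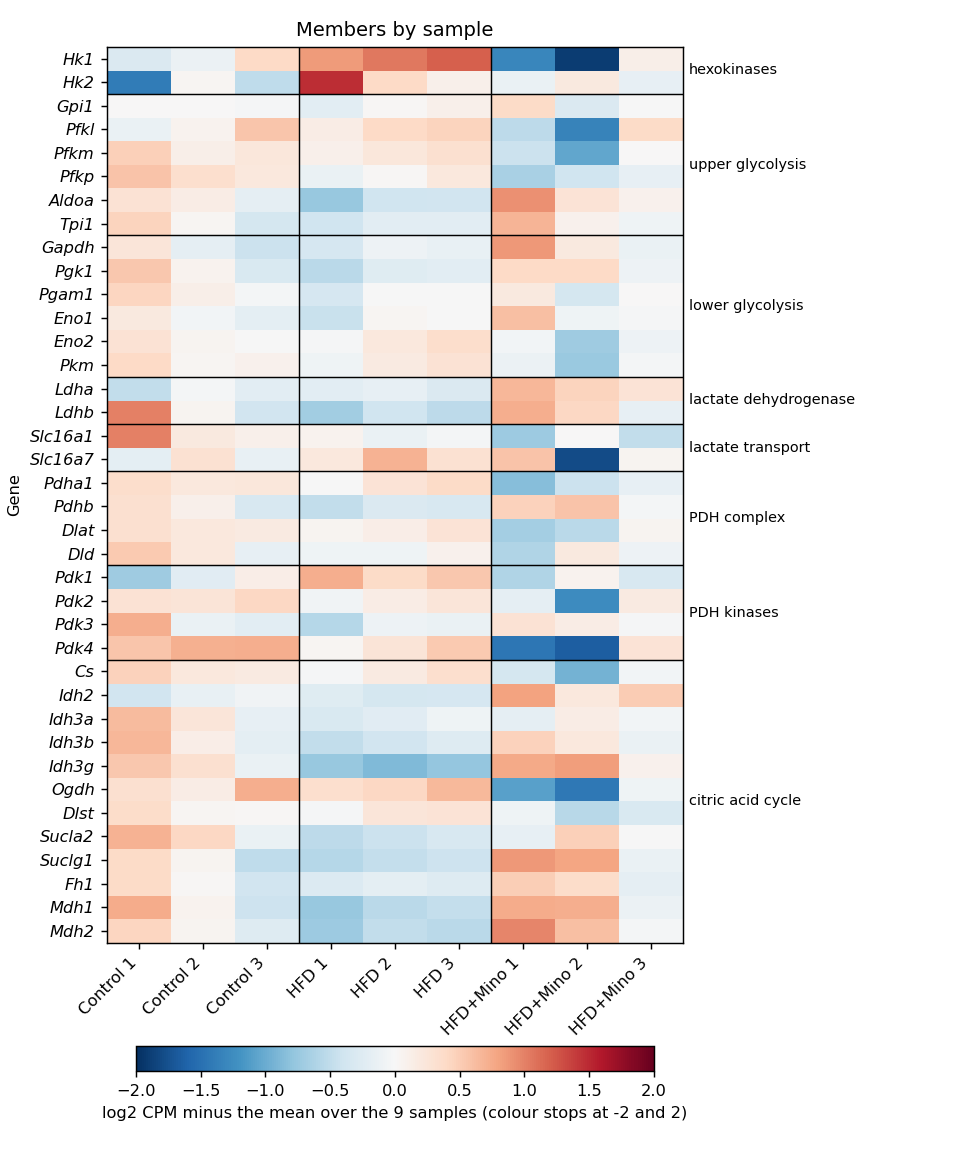
Heat map of the 38 members (rows, grouped by role) in the 9 samples (columns), coloured by log2 CPM minus the mean of the gene over all samples. Many citric acid cycle genes are blue in all 3 HFD samples and red in HFD+Mino replicates 1 and 2, while Hk1 shows the opposite colours, and HFD+Mino replicate 3 is pale in most rows.

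Per kilobase of exon the members spanned a wide range of levels. Aldoa, which encodes the aldolase that splits the 6-carbon sugar, had a mean of 1340 CPM per kb over the 9 samples. It was followed by Mdh1 (929 CPM per kb), Ldhb (511), Tpi1 (390) and Pkm (347), and the ranges over samples of these neighbours overlapped. At the other end stood Slc16a7 (0.497 CPM per kb), Hk2 (0.635), Pdk4 (2.62) and Pdk1 (6.65). With the length of the principal transcript in place of all exons, Aldoa (2582 CPM per kb) and Mdh1 (1124) still led, and Pkm (713) and Tpi1 (667) came before Ldhb (615). Gapdh, which encodes the dehydrogenase between upper and lower glycolysis and is a common reference gene, had 41.0 CPM per kb. The count table also lists 10 copies named as Gapdh pseudogenes, whose sequences were not compared. Together they held counts equal to 6.04% to 15.7% of those of Gapdh. Since the treatment of reads with several positions is not given, the Gapdh level is uncertain.

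The 2 hexokinases had the widest median log2 differences of all roles for HFD minus Control (1.15) and HFD+Mino minus HFD (-1.31) but not for HFD+Mino minus Control (-0.16), and neither gene passed the test. A median of 2 genes is their mean, and the roles compared held 2 to 12 genes. Hk1, the main hexokinase of brain, was at 159, 180 and 256 CPM in Control, 350, 407 and 446 CPM in HFD, and 79.2, 52.1 and 210 CPM in HFD+Mino. All HFD samples lay above all others, and HFD+Mino replicate 3 stood between the Control samples while replicates 1 and 2 were below them. The log2 fold change was -1.81 for HFD+Mino minus HFD (95% interval -2.78 to -0.85, FDR = 0.0157, edgeR), 1.01 for HFD minus Control (0.07 to 1.95, FDR = 0.209) and -0.80 for HFD+Mino minus Control (-1.74 to 0.14). Hk1 missed the FDR of 0.01, and it was called between HFD+Mino and HFD with DESeq2 (FDR = 0.000451), with the replicate block in Control and HFD+Mino (FDR = 0.000479) and without HFD+Mino replicate 3 (-2.61, FDR = 0.000639). These settings called 22.4%, 25.6% and 21.4% of all genes in that comparison, and the block was chosen from the same counts. Hk2, an inducible hexokinase, was low at 1.27 to 9.29 CPM and differed by 1.29 for HFD minus Control (0.25 to 2.33, FDR = 0.15). Its highest value was in HFD replicate 1, and HFD replicates 2 and 3 were at 4.38 and 3.58 CPM. As a share of the hexokinase level per kb, Hk1 held 97.4% to 98.9% in Control, 96.3% to 98.9% in HFD and 90.5%, 94.8% and 98.0% in the HFD+Mino samples.

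Summed CPM of cell type markers moved in these groups too. The 6 astrocyte markers summed to 1912 to 2049 CPM in Control, 2484 to 2700 in HFD and 1483 to 1808 in HFD+Mino, and the 3 oligodendrocyte precursor markers to 39.5 to 75.0, 119 to 125 and 34.2 to 45.1. Of these lists, 0 of 6 astrocyte markers were called in any pair, and 1 of 3 precursor markers was called higher in HFD than Control and 2 of 3 lower in HFD+Mino than HFD. Neuronal markers summed to 4486 to 7538, 3326 to 5432 and 3983 to 4932 CPM, and microglial markers to 160 to 216, 226 to 240 and 177 to 223 CPM, with 0 of 6 called in either list. Single markers did not all move with their sum. Microglial Aif1 and C1qa were lower in every HFD than in every HFD+Mino sample, Csf1r and Cx3cr1 were higher, and P2ry12 and Tmem119 overlapped. Among astrocyte markers only Slc1a2 overlapped between these groups (371, 388 and 484 against 522, 551 and 302 CPM), and the others were higher in HFD. Neuronal Rbfox3 and Syt1 were higher in every HFD sample, and the other neuronal markers overlapped. The part of cell type in the differences of the members was not tested.

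In upper glycolysis, from glucose 6-phosphate to the triose phosphates, 0 of 6 members passed the test. Aldoa had 4501, 4091 and 3266 CPM in Control, 2199, 2822 and 2854 CPM in HFD, and 6961, 4469 and 3945 CPM in HFD+Mino. HFD samples were the lowest without overlap. The difference was 0.97 on the log2 scale for HFD+Mino minus HFD (0.38 to 1.55, FDR = 0.0235, edgeR) and -0.59 for HFD minus Control (-1.17 to -0.01, FDR = 0.235). Tpi1, which interconverts the triose phosphates, differed by 0.54 between HFD+Mino and HFD (-0.05 to 1.13).

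The isozymes of phosphofructokinase gave differences of the other sign. Pfkm, the muscle-type subunit that is also a main form in brain, had log2 differences of -0.64 (-1.22 to -0.07, FDR = 0.0879, edgeR) and Pfkl of -0.66 (-1.47 to 0.14) for HFD+Mino minus HFD, and neither passed. Pfkm held 60.2% to 67.4% of the phosphofructokinase level per kb in every sample, or 39.5% to 48.3% with the length of the principal transcript. Gpi1, which turns glucose 6-phosphate into fructose 6-phosphate, varied least between groups of all members. It was at 726, 723 and 707 CPM in Control, 622, 736 and 775 in HFD, and 939, 591 and 721 in HFD+Mino, and its group means spanned 0.08 on the log2 scale.

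In lower glycolysis, from glyceraldehyde 3-phosphate to pyruvate, 0 of 6 members passed the test. Pkm, the pyruvate kinase that makes pyruvate and ATP, was at 2228, 1752 and 1801 CPM in Control, 1608, 1915 and 2063 CPM in HFD, and 1564, 1010 and 1658 CPM in HFD+Mino. The HFD+Mino and HFD samples overlapped, and the log2 difference was -0.40 (-0.93 to 0.13). Gapdh and Pgk1, the latter a kinase that makes ATP, differed by 0.56 (-0.05 to 1.18) and 0.58 (0.02 to 1.14, FDR = 0.111, edgeR) for HFD+Mino minus HFD. Pgam1, a mutase, was at 239, 193 and 172 CPM in Control, 141, 177 and 176 in HFD, and 204, 138 and 178 in HFD+Mino. Its groups overlapped, and its group means spanned 0.29 on the log2 scale.

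The enolases, which form phosphoenolpyruvate, stood in another proportion in HFD+Mino, although neither gene passed the test. Eno1, the ubiquitous form, was at 1239, 1032 and 939 CPM in Control, 787, 1106 and 1070 in HFD, and 1631, 1011 and 1062 in HFD+Mino. Eno2, the neuronal form, was at 1021, 867 and 829 CPM in Control, 823, 972 and 1064 in HFD, and 806, 511 and 782 in HFD+Mino, below all HFD samples (-0.45, -0.96 to 0.07). Eno1 held 49.8% to 51.5% of the enolase level per kb in Control, 45.6% to 49.9% in HFD and 54.3% to 63.9% in HFD+Mino, so the shares in HFD+Mino lay above those of all other samples, and no test was made of the shares. A copy, Eno1b, held counts equal to 1.66% to 2.27% of those of Eno1.

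Lactate dehydrogenase interconverts pyruvate and lactate, and neither of its 2 subunits passed the test. Ldha, the subunit of glycolytic tissues, was at 442, 604 and 536 CPM in Control, 532, 554 and 508 CPM in HFD, and 981, 846 and 744 CPM in HFD+Mino. HFD+Mino lay above the 6 other samples, which overlapped, with log2 differences of 0.69 from HFD (0.23 to 1.14, FDR = 0.0322, edgeR) and 0.70 from Control (0.25 to 1.16, FDR = 0.133). Ldhb, the subunit of oxidative tissues, was at 1487, 767 and 568 CPM in Control, 456, 561 and 513 CPM in HFD, and 1221, 983 and 663 CPM in HFD+Mino. Its lowest values were in HFD, with log2 differences of -0.88 for HFD minus Control (-1.65 to -0.12, FDR = 0.179) and 0.91 for HFD+Mino minus HFD (0.14 to 1.67, FDR = 0.0731). The Control SD of 484 CPM came with the high value of Control replicate 1. The ratio of Ldha to Ldhb per kb was 0.141, 0.373 and 0.448 in Control, 0.554, 0.468 and 0.470 in HFD, and 0.381, 0.408 and 0.533 in HFD+Mino, and thus higher in the HFD samples than in the Control samples but overlapping with HFD+Mino.

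Of the monocarboxylate transporters, Slc16a1 (MCT1, found in endothelium and glia) was at 124, 71.3 and 66.4 CPM in Control, 65.4, 56.7 and 60.7 CPM in HFD, and 37.3, 62.6 and 44.2 CPM in HFD+Mino. All HFD+Mino samples were below all Control samples (-0.86, 95% interval -1.49 to -0.24, FDR = 0.146, edgeR). Slc16a7 (MCT2, the neuronal form) was at 1.56 to 8.70 CPM, where counts are few. Summed CPM of 5 endothelial markers ran from 156 to 312 in Control, 146 to 182 in HFD and 158 to 414 in HFD+Mino, and 0 of 5 were called. Single endothelial markers did not all move with this sum. Ly6c1 was at 297, 247 and 74.5 CPM in HFD+Mino, above all HFD samples, whereas Flt1 was below all HFD samples (16.3, 15.9 and 13.0 against 26.1, 28.2 and 36.3 CPM). Cldn5, Pecam1 and Slco1a4 overlapped between these groups.

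The pyruvate dehydrogenase complex turns pyruvate into acetyl-CoA, and the subunits of its first enzyme had differences of opposite sign, none of them past an FDR of 0.01. Pdhb, the beta subunit, had 347, 298 and 223 CPM in Control, 199, 229 and 223 CPM in HFD, and 385, 415 and 271 CPM in HFD+Mino. HFD+Mino was above HFD in all samples (0.72, 0.20 to 1.24, FDR = 0.0446, edgeR). Pdha1, the alpha subunit on chromosome X, had 270, 245 and 247 CPM in Control, 210, 256 and 276 CPM in HFD, and 118, 156 and 190 CPM in HFD+Mino. HFD+Mino was below all other samples, by -0.68 from HFD (-1.17 to -0.19, FDR = 0.0438) and -0.72 from Control (-1.21 to -0.23, FDR = 0.139). Exons of Pdha1 share 603 nt with those of Map3k15 on the other strand, so reads there may not be told apart if strand was not counted. Dlat, the acetyltransferase, differed by -0.51 (-1.01 to -0.01) between HFD+Mino and HFD, and Dld, the dehydrogenase shared with other complexes, ranged from 103 to 227 CPM with groups that overlapped.

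The kinases that inhibit this complex were mostly Pdk2, with 47.7% to 74.4% of the kinase level per kb. Pdk2 had 186, 182 and 203 CPM in Control, 145, 168 and 181 in HFD, and 135, 63.5 and 172 in HFD+Mino (HFD+Mino minus HFD -0.41, -1.09 to 0.26). Pdk1, which responds to hypoxia, had 30.1, 42 and 53.8 CPM in Control, 81.5, 64.2 and 71.4 CPM in HFD, and 32.2, 51.3 and 39.3 CPM in HFD+Mino. Like Hk1, Pdk1 was higher in all HFD samples than in all 6 others, with log2 differences of 0.79 for HFD minus Control (0.21 to 1.36, FDR = 0.115, edgeR) and -0.82 for HFD+Mino minus HFD (-1.40 to -0.24, FDR = 0.0398). Hk1 and Pdk1 were the 2 members with that arrangement (5.26% of 38), compared with 13.4% of all genes tested. Pdk4, the kinase known to rise with fasting and fat use, had 11.8, 13.1 and 13.2 CPM in Control, 8.23, 9.60 and 11.6 CPM in HFD, and 2.94, 2.56 and 9.67 CPM in HFD+Mino. HFD did not exceed Control in any sample, and HFD+Mino differed from Control by -1.32 (-2.32 to -0.32, FDR = 0.153) and from HFD by -0.95 (-1.94 to 0.05). Pdk3 ranged from 22.6 to 56.0 CPM.

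**Figure D2:**
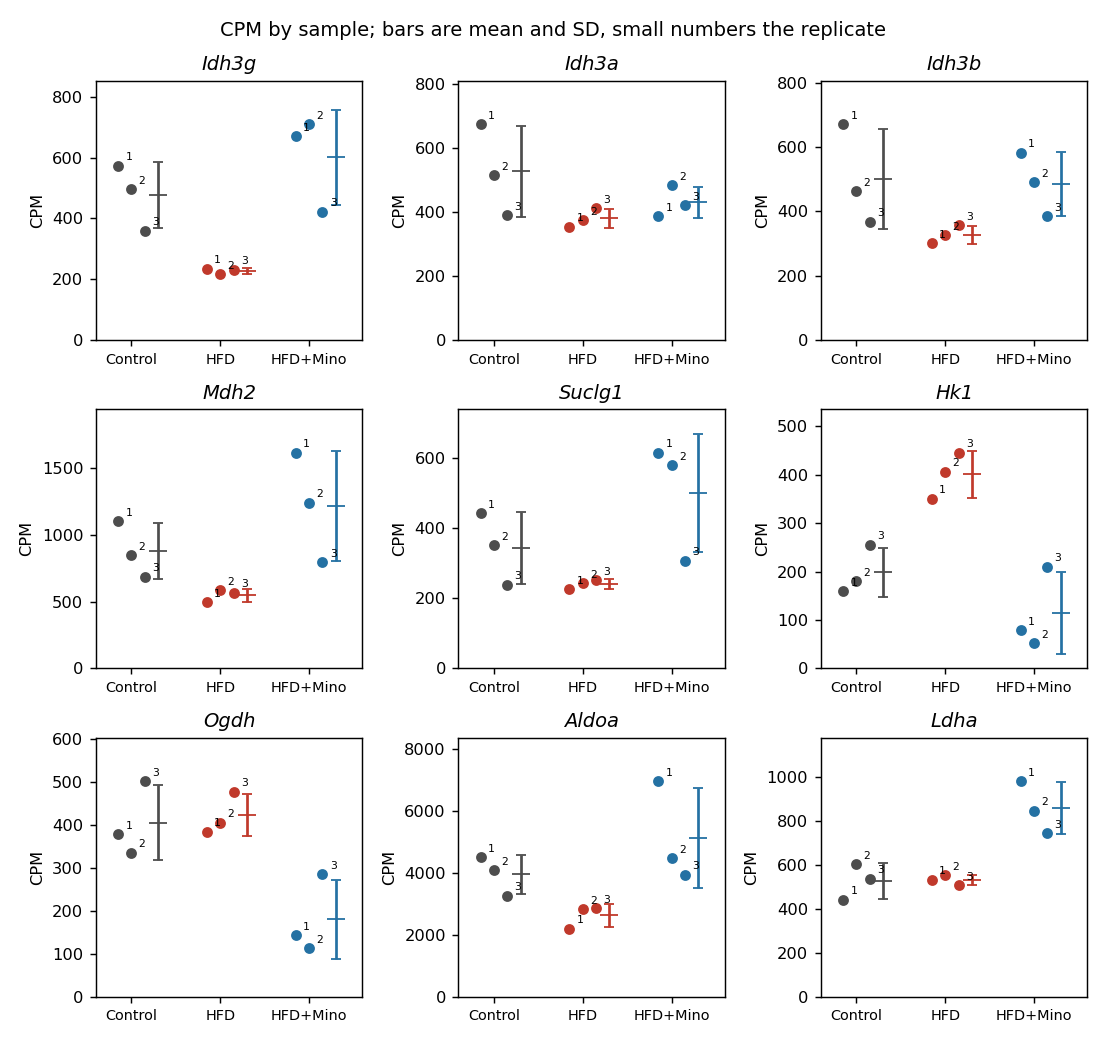
CPM of 9 members in each sample, with the mean and SD (n = 3) of each group beside the points and the replicate numbers at the points. Idh3g, Mdh2 and Aldoa are lowest in HFD, Hk1 is highest in HFD, and Ogdh is lowest and Ldha highest in HFD+Mino.

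Among the 12 citric acid cycle members, the median log2 difference was -0.49 for HFD minus Control, with 10 of 12 below 0, and 0.56 for HFD+Mino minus HFD, with 9 of 12 above 0. Without Control replicate 1 the first median was -0.28, with 10 of 12 still below 0. Over all 17344 genes the medians were 0.00 and 0.01, and Idh3g was the only cycle member called. NAD-dependent isocitrate dehydrogenase makes 2-oxoglutarate. Its subunits shared the sign of their differences within each comparison, negative for HFD minus Control and positive for HFD+Mino minus HFD. The differences were widest in Idh3g, and no test was made between subunits. Idh3a, the catalytic subunit, had 675, 516 and 391 CPM in Control, 354, 375 and 412 CPM in HFD, and 388, 484 and 421 CPM in HFD+Mino, with log2 differences of -0.47 for HFD minus Control (-0.98 to 0.04) and 0.18 for HFD+Mino minus HFD (-0.33 to 0.69). Idh3b had 671, 463 and 368 CPM in Control, 300, 326 and 356 in HFD, and 583, 490 and 385 in HFD+Mino, with differences of -0.61 (-1.18 to -0.05, FDR = 0.208, edgeR) and 0.57 (0.00 to 1.14, FDR = 0.12). The counts of Idh3g relative to Idh3a were 0.849, 0.964 and 0.921 in Control, 0.662, 0.576 and 0.562 in HFD, and 1.73, 1.47 and 1.00 in HFD+Mino. The 3 groups did not overlap in this ratio, on which no test was made. Per kb, Idh3g held 39.2% to 43.7% of the summed level of the 3 subunits in Control, 31.6% to 35.5% in HFD and 44.4% to 52.4% in HFD+Mino.

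**Figure D3:**
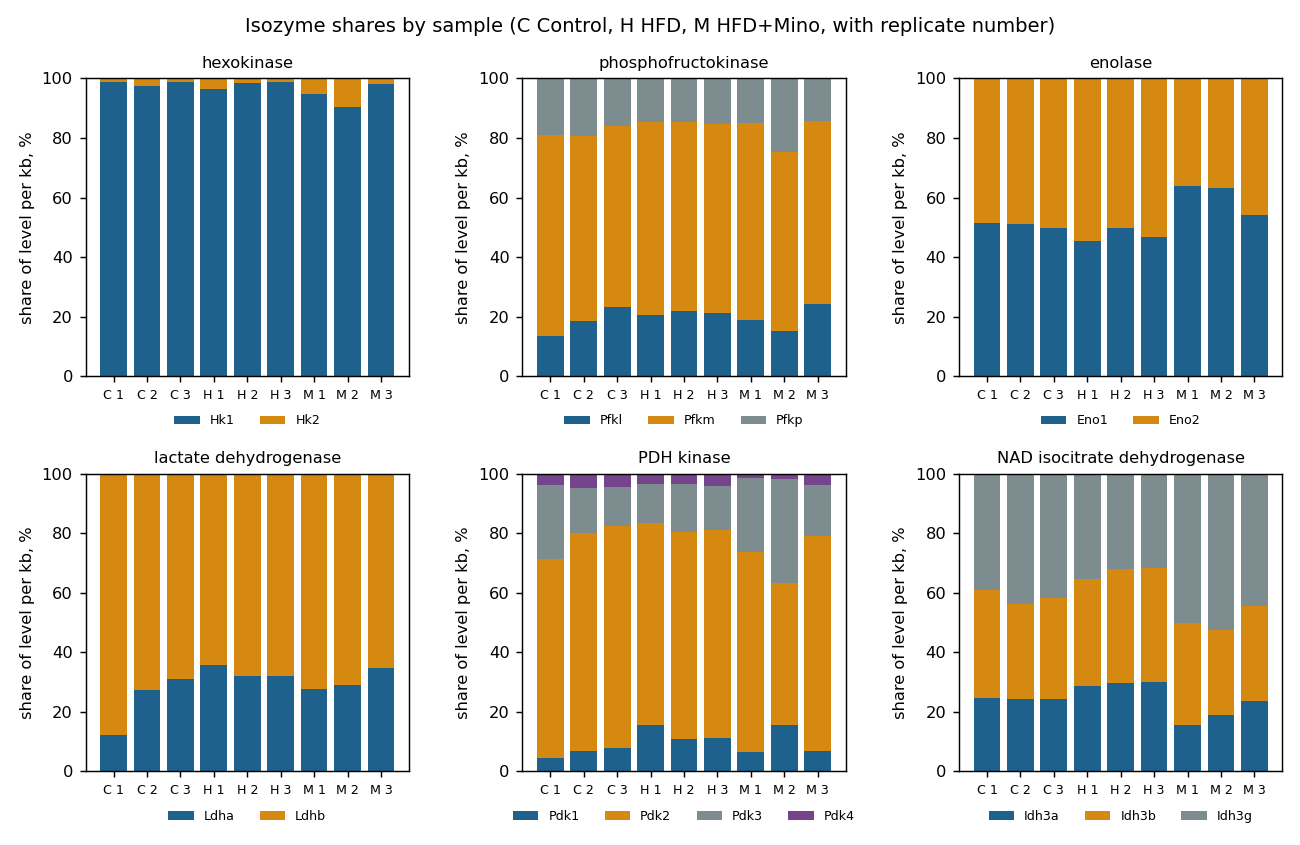
Share (%) of each isozyme or subunit in the level per kb of its family, stacked to 100% for each sample, in 6 families. Idh3g takes its smallest shares in the 3 HFD samples and Eno1 its largest in the 3 HFD+Mino samples, and Ldha takes its smallest in Control replicate 1.

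Idh2, the NADP-dependent mitochondrial isocitrate dehydrogenase, was at 99.6, 118 and 124 CPM in Control, 110, 102 and 102 CPM in HFD, and 227, 151 and 186 CPM in HFD+Mino. It was higher in HFD+Mino than in every other sample, with log2 differences of 0.84 from HFD (0.38 to 1.30, FDR = 0.0175, edgeR) and 0.73 from Control (0.26 to 1.19, FDR = 0.133). Ogdh, the first enzyme of the 2-oxoglutarate dehydrogenase complex, was at 378, 335 and 501 CPM in Control, 384, 405 and 476 CPM in HFD, and 143, 113 and 285 CPM in HFD+Mino. In this case HFD+Mino was lower than both other groups without overlap, by -1.23 from HFD (-1.95 to -0.51, FDR = 0.0216) and -1.17 from Control (-1.89 to -0.45, FDR = 0.132). With the replicate block in Control and HFD+Mino, Ogdh was called in both comparisons (-1.33 and -1.26, FDR = 0.000605 and 0.00549). That block was chosen from the same counts, and with it 25.6% and 3.18% of all genes were called. Dlst, the second enzyme of that complex, differed by -0.47 (-0.94 to -0.01) between HFD+Mino and HFD, and by 0.10 once a trend on exon length was removed. Citrate synthase (Cs), which starts the cycle, differed by -0.58 (-1.12 to -0.04, FDR = 0.1).

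Further along the cycle, Suclg1, the alpha subunit of succinyl-CoA synthetase, had 441, 351 and 238 CPM in Control, 226, 243 and 252 in HFD, and 614, 579 and 306 in HFD+Mino. Its log2 difference was 1.06 for HFD+Mino minus HFD (0.40 to 1.72, FDR = 0.0267, edgeR). Sucla2, the ATP-forming beta subunit, had 581, 474 and 325 CPM in Control, 250, 265 and 286 in HFD, and 320, 499 and 354 in HFD+Mino, with -0.79 for HFD minus Control (-1.36 to -0.22, FDR = 0.11). Both had their lowest group mean in HFD, and for Suclg1 the HFD samples overlapped with Control. Fh1, the fumarase, ranged from 131 to 241 CPM.

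The malate dehydrogenases also had their lowest values in HFD. Mdh1, the cytosolic form, was at 3699, 2323 and 1660 CPM in Control, 1309, 1522 and 1582 CPM in HFD, and 3702, 3652 and 2023 CPM in HFD+Mino. Mdh2, the mitochondrial form, was at 1105, 851 and 687 CPM in Control, 494, 587 and 567 CPM in HFD, and 1618, 1243 and 797 CPM in HFD+Mino. For both genes all HFD samples lay below all others. The log2 differences for HFD+Mino minus HFD were 1.09 for Mdh1 (0.37 to 1.80, FDR = 0.0318, edgeR) and 1.15 for Mdh2 (0.53 to 1.77, FDR = 0.0167), and those for HFD minus Control were -0.80 (-1.51 to -0.09, FDR = 0.192) and -0.68 (-1.30 to -0.06, FDR = 0.201). The ratio of Mdh2 to Mdh1 counts stayed between 0.299 and 0.437 in all samples.

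**Figure D4:**
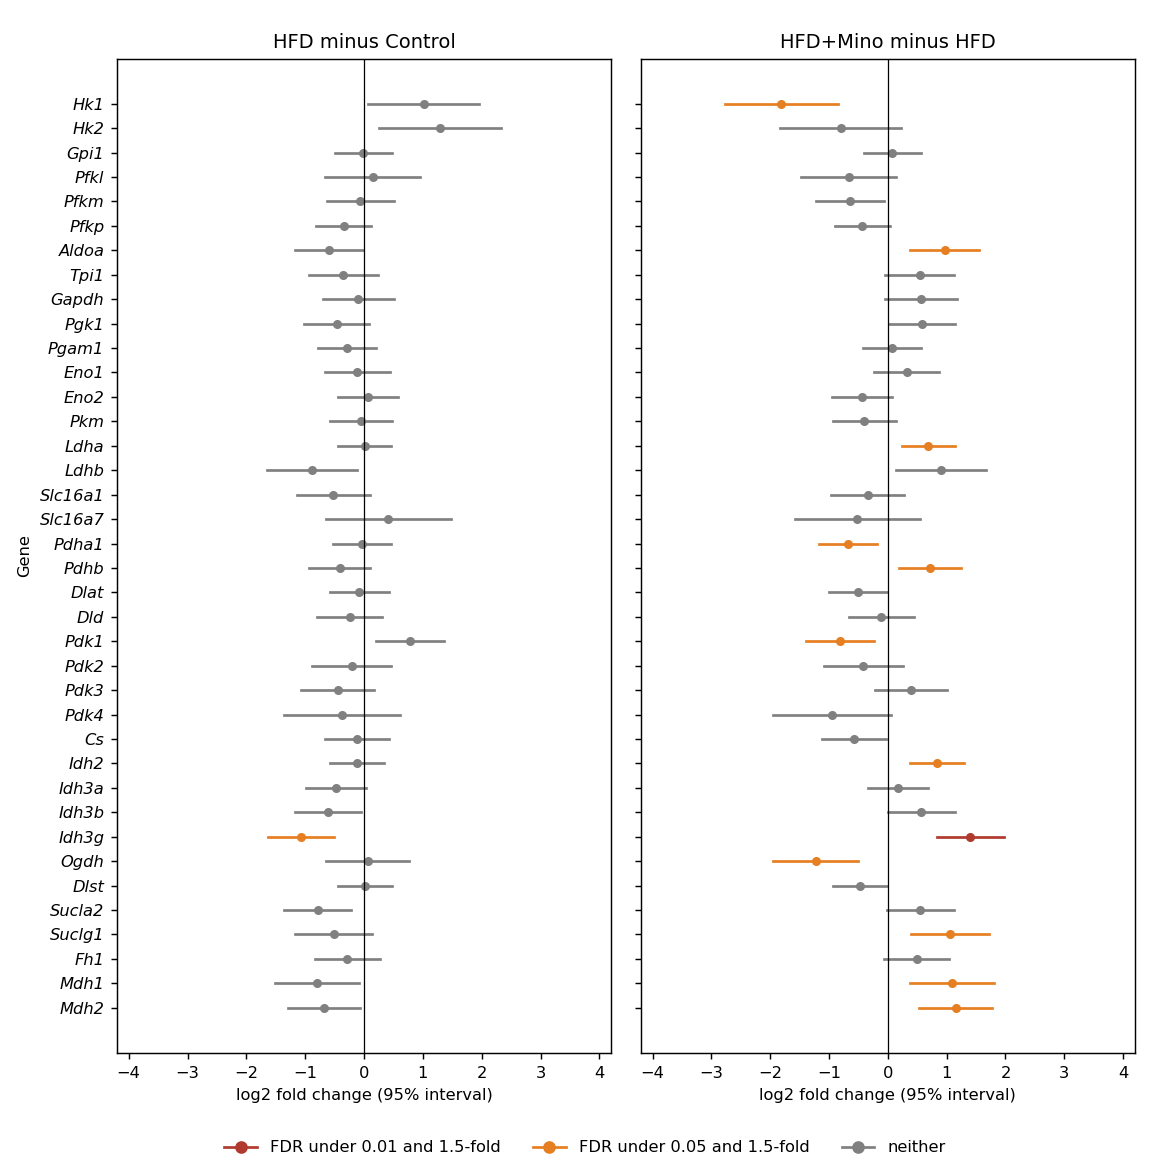
Log2 fold change (points) and 95% interval (lines) of the 38 members for HFD minus Control (left) and HFD+Mino minus HFD (right), from edgeR. Red marks FDR under 0.01 with 1.5-fold (Idh3g on the right), orange FDR under 0.05 with 1.5-fold (1 member on the left and 11 on the right) and grey neither. The panels share the HFD samples.

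Counted together, 29 of 38 members had a negative log2 difference for HFD minus Control (median -0.23), compared with 49.7% of all genes tested (median 0.00). All HFD samples lay below all 6 others in 7 members (18.4%, and 9.62% of all genes), namely Aldoa, Ldhb, Idh3b, Idh3g, Sucla2, Mdh1 and Mdh2. These figures changed without Control replicate 1, when 25 of 38 were negative with a median of -0.09, and 1 member instead of 10 had an unadjusted p under 0.05. That last count was 6 without Control replicate 2 and 4 or 5 without any 1 of the HFD replicates. Over all genes tested it fell as well, from 3554 to 2419 without Control replicate 1 and 2557 without Control replicate 2. Without 1 of the HFD replicates it was 2588 to 2619. Without Control replicate 1, 8443 of 17821 genes were negative, with a median of 0.03. For HFD+Mino minus HFD, 20 members were positive and 18 negative (median 0.08), with 50.3% of all genes positive, 15 were above HFD without overlap (39.5%, and 23.3% of all genes) and 9 below it (23.7%, and 23.5% of all genes). This median turned to -0.02 without HFD replicate 1 (18 positive, 20 negative), was 0.01 without HFD+Mino replicate 1, and rose to 0.12, 0.14 and 0.15 without HFD replicate 2, HFD replicate 3 and HFD+Mino replicate 2. At an FDR under 0.05 with 1.5-fold, 12 members differed between HFD+Mino and HFD (8 higher, 4 lower), which is 31.6% compared with 27.4% of all genes (14.6% higher, 12.9% lower). The 8 were Aldoa, Ldha, Pdhb, Idh2, Idh3g, Suclg1, Mdh1 and Mdh2, and the 4 were Hk1, Pdha1, Pdk1 and Ogdh. The count of 12 went to 1 or 2 without any 1 of the HFD replicates or HFD+Mino replicate 1, 6 without HFD+Mino replicate 2, 7 when Control replicate 2 and 21 when HFD+Mino replicate 3 was left out, and over all genes it moved between 556 and 6780 with 1 sample left out.

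HFD+Mino replicate 3 lay nearest to the HFD mean of the HFD+Mino samples in 28 of 38 members, and in 57.6% of all genes. Without it, 10 members were called between HFD+Mino and HFD at FDR under 0.01 (Idh3g, Aldoa, Suclg1, Mdh1 and Mdh2 higher, Hk1, Pfkl, Dlat, Pdk4 and Ogdh lower), 3 between HFD+Mino and Control (Hk1, Ogdh and Pdk4 lower) and 5 in the 3-way test. As shares these were 26.3%, 7.89% and 13.2% of the members, against 21.4%, 6.28% and 13.4% of all genes, whose calls rose from 719 to 3815, from 0 to 1120 and from 369 to 2396. Pairing the Control and HFD+Mino samples by replicate number gave 12 called members for HFD+Mino against HFD (9 higher, 3 lower), 1 for each of the other pairs and 3 in the 3-way test. It also raised the calls over all genes, to 25.6% for HFD+Mino against HFD (31.6% of the members), 6.22% for HFD against Control, 3.18% for HFD+Mino against Control and 13.2% in the 3-way test.

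The difference between HFD+Mino and HFD moved with exon length. Over the 38 members Spearman's rho between the log2 difference and exon length was -0.62, and over 15626 genes with a known length it was -0.49, both as descriptions across genes that share the same 6 libraries. Of the 19 members with exon lengths up to 3924.5 nt, the median length, 14 were higher in HFD+Mino (median 0.57), and of the 19 longer members 6 were (median -0.45). For HFD minus Control the rho was 0.62 in the members and 0.32 over all genes, and 18 of the 19 shorter members were below 0. When a smooth trend of each sample on exon length was removed, 0 members were called in any comparison, 22 of 38 were positive for HFD+Mino minus HFD, and 30 of 38 negative for HFD minus Control. For GC content the rho in the members was -0.01 and 0.28. What sets the relation with length was not tested.

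**Figure D5:**
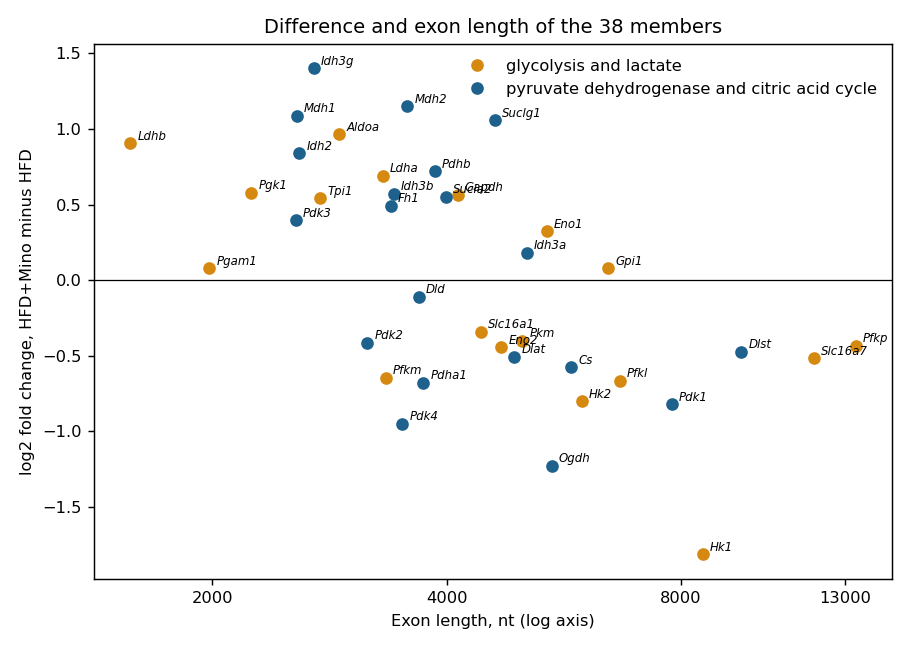
Log2 fold change for HFD+Mino minus HFD (vertical axis) against exon length in nt (horizontal log axis) of the 38 members, coloured by pathway. Idh3g, Mdh1 and Aldoa are short and positive, Hk1 is long and at -1.81, and Ogdh and Pdk1 are among the longer, negative members.

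Of 94 other genes of these pathways (further isozymes, glucose transporters, carriers, accessory factors, shuttles, glycogen and pentose phosphate enzymes), 90 were tested. Between HFD+Mino and HFD 1 was called higher and 1 lower (2 of 90), compared with 4.15% of all genes called. Between HFD and Control 1 of 90 was called lower, compared with 1.74% of all genes called in either direction. In the 3-way test 1 of 90 was called, compared with 2.13% of all genes. Gsk3a, the kinase that inhibits glycogen synthase, was at 72.2, 67.7 and 75.2 CPM in Control, 4.47, 5.95 and 5.85 CPM in HFD, and 28.7, 15.4 and 80.5 CPM in HFD+Mino. It fell in HFD (-3.72, FDR = 0.00234, edgeR), was higher in HFD+Mino than HFD (2.93, FDR = 0.00604) and was the 1 other gene called in the 3-way test. The call between HFD+Mino and HFD was lost without Control replicate 2, without any HFD replicate, without HFD+Mino replicate 1 and with models of the 6 samples compared (2.92, FDR = 0.0123), and that for HFD against Control without Control replicate 2 or any HFD replicate. None of the 7 glucose transporters and 6 pyruvate and lactate carriers was called in any comparison, with 0 to 2 per list past an FDR of 0.05 with 1.5-fold. Between HFD+Mino and HFD, 27.4% of all genes passed that threshold.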

How the data were processed

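Gene counts from bulk RNA sequencing of PVN punches were analysed in 9 mice, 3 per group. The authors deposited raw counts from featureCounts after HISAT2 alignment to mm10, with amplified cDNA libraries. Versions, strand setting and treatment of reads with several positions are not given in the sources used here. Counts were fitted with edgeR 4.0.16 in R 4.3.3 (filterByExpr, TMM, quasi-likelihood, all 9 samples). A call needed FDR under 0.01 and 1.5-fold, and in the 3-way test HFD also had to be the highest or lowest group at 1.5-fold or more from the log2 mean over groups. Exon lengths came from GENCODE M21, for 15626 of the genes tested, and promoters from RefSeq. DESeq2 1.42.0 and other settings were alternatives. Reads carry no molecular identifiers, so precision was taken from the spread between mice. The code was tested on simulated data.

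The members, lists and tests were chosen with earlier results of these data known. Values in every sample were due for called members, the highest member per kb of each role, and the 3 widest and 3 narrowest spreads of group means, and other members, all of which may be named, were added with their values seen. Of the other pathway genes the called ones were due to be named, and a result among them is not reported here. Same-numbered Control and HFD+Mino samples deviated together (correlations of 0.135, 0.163 and 0.292), unlike HFD samples (-0.152 to -0.00624 with either group). HFD replicates are numbered 1 to 3 as in their titles, whereas their descriptions number them 3 to 5, so these HFD correlations and the block over all 9 samples rest on the titles. This pairing comes from the counts, since no shared batch is named.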

Additional observations from a re-analysis of the deposited data

How the results depend on the processing

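No direction of a named difference of a single gene turned except that of Dlst between HFD+Mino and HFD, from -0.47 to 0.10 with the trend on exon length removed, and the members' median for that pair turned from 0.08 to -0.02 without HFD replicate 1. Members called in the 3-way test went from 0 to 3 with DESeq2, the likelihood ratio test, an FDR under 0.05 or the replicate block in Control and HFD+Mino, to 2 without the filter on low counts, and to between 0 and 5 with 1 sample left out (5 without HFD+Mino replicate 3). Members called between HFD and Control went from 0 to 1, Idh3g, with DESeq2, the likelihood ratio test, that block or an FDR under 0.05, and stayed at 0 with any sample left out. Between HFD+Mino and Control the count went from 0 to 1 with that block and to between 0 and 3 with 1 sample left out (3 without HFD+Mino replicate 3). Between HFD+Mino and HFD it went from 1 to 9 with DESeq2, 8 with the likelihood ratio test, 12 with an FDR under 0.05, 2 without the filter, 3 with the GC trend removed, 0 with the exon length trend removed or with models of the 6 samples compared, and between 0 and 10 with 1 sample left out (10 without HFD+Mino replicate 3, 0 without Control replicate 2, any HFD replicate, or HFD+Mino replicate 1 or 2). With the replicate block over all 9 samples it was 3, and with the block in Control and HFD+Mino alone 12. Calls over all 17344 genes in that comparison rose too, from 719 to 3878 with DESeq2, 3314 with the likelihood ratio test and 4757 with an FDR under 0.05. They were 1550 with the GC trend removed, 1369 and 4441 with the 2 blocks, and 1905 of 25025 genes without the filter. With the exon length trend removed they fell to 463, and models of the 6 samples compared called 406 of 16742 genes. With 1 sample left out they ran from 29 to 3815. Idh3g kept its call in 9 of 11 settings with no sample left out and in 3 of 9 with 1 left out. Apart from settings with fewer samples, the causes were not tested.

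For the other genes of the pathway, the 3-way count went from 1 to 11 with DESeq2, the likelihood ratio test or an FDR under 0.05, 4 without the filter, 9 with the block in Control and HFD+Mino, 2 with either trend removed, and 0 to 11 with 1 sample left out. Between HFD and Control it went from 1 to 6 with DESeq2, the likelihood ratio test or an FDR under 0.05, 3 with that block, the length trend removed or the 6 samples alone, 2 with the GC trend removed, and 0 to 1 with 1 sample left out. Between HFD+Mino and HFD it went from 2 to 22 with DESeq2, 18 with the likelihood ratio test, 26 with an FDR under 0.05, 9 without the filter or with the GC trend removed, 4 with a mean count of at least 50, 6 with the block over all 9 samples, 27 with the block in Control and HFD+Mino, 0 with the 6 samples alone, and 0 to 23 with 1 sample left out. Between HFD+Mino and Control it went from 0 to 1 with that block and 0 to 5 with 1 sample left out. In each of these comparisons the highest count with 1 sample left out came without HFD+Mino replicate 3, apart from HFD and Control. Calls over all 17344 genes rose in the same settings, and those between HFD+Mino and HFD are given above. In the 3-way test they went from 369 to 2342 with DESeq2, 2234 with the likelihood ratio test and 2258 with an FDR under 0.05. For HFD against Control they went from 302 to 1186, 966 and 1001 in the same order. The replicate block lost no call of a member. Isozyme shares by the length of the principal transcript were added after seeing the data.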

Other observations

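Levels of several members touch other rows of the count table. Exons of Pfkp share 748 nt with those of Pitrm1 on the opposite strand, those of Gapdh 68 nt with Iffo1, of Mdh1 52 nt with Wdpcp, of Tpi1 34 nt with Spsb2 and of Aldoa 25 nt with Fam57b. Copies of Aldoa (Aldoart1 and Aldoart2) held counts equal to 0.633% to 0.826% of those of Aldoa, Csl 0.247% to 0.655% of those of Cs, and Gm13315 0.0157% to 0.170% of those of Ldha. The sum of the 12 citric acid cycle members was 9024, 6581 and 5257 CPM in Control, 4226, 4682 and 4941 CPM in HFD, and 8861, 8379 and 5723 CPM in HFD+Mino, with Mdh1 the highest of them per kb, and the sum of the 4 pyruvate dehydrogenase kinases was 284, 268 and 299 CPM, 257, 273 and 295 CPM, and 211, 155 and 254 CPM in the same order. Choroid plexus markers, which would show tissue from the ventricle, summed to 9.84 to 10.1 CPM in Control, 12.4 to 38.6 in HFD and 12.8 to 26.4 in HFD+Mino, and ependymal markers to 4.02 to 89.1, 99.4 to 179 and 202 to 417 CPM. Markers within these sums disagreed. Ttr was at 0.124 to 2.10 CPM in all samples, Clic6 overlapped between HFD and HFD+Mino, Kl was higher in HFD and Folr1 in HFD+Mino. Among ependymal markers Ccdc153 and Tmem212 were higher in every HFD+Mino than every HFD sample, and Foxj1 overlapped. Erythrocyte markers summed to 27.0 to 101 CPM in Control, 20.9 to 49.0 in HFD and 23.0 to 148 in HFD+Mino, and mural markers to 41.5 to 68.8, 32.3 to 33.7 and 25.7 to 60.0 CPM. Of the mural markers, 1 of 3 was called lower in HFD+Mino than HFD. Pdgfrb was lower in every HFD+Mino than every HFD sample, while Rgs5 and Acta2 were higher.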
